A study of Mus musculus with 16 samples.

Results

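Heart and brain are electrically excitable tissues, and kidney and liver are not. Gene models of the mouse assembly were taken as members where heart and all 4 brain tissues (whole brain, cerebellum, cortex and olfactory bulb) lay above both kidney and liver, in both capture designs, on log2(value + 1) of the sum over a gene model's transcripts. The mean value reached 10 in 30747 gene models, of which 1279 met this rule, or 4.16%. The opposite order, with heart and all 4 brain tissues below both kidney and liver, held for 1580 gene models, or 5.14%. This balance turned with the scaling: 1218 lay above and 915 below with total-fragment scaling, which divides by each library's fragments without the spike-ins, and 764 above and 1957 below under quantile normalization. The order itself is a description of what the rule selected and carries no test.

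The libraries came from CaptureSeq, in which probes enrich chosen RNAs before sequencing. The lncRNA design targeted known and predicted long noncoding RNAs, and the splice junction design targeted annotated junctions after the regions most abundant in public brain RNA-seq had been removed. All tissues were from adult C57BL/6J mice with no allele or treatment, each with 1 library per design, and both designs used the RNA of the same tissue. The value is the authors' normalised estimate of fragments, comparable between tissues within a design.

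The 5 excitable tissues do not differ from kidney and liver in cell type alone. Brain RNA was extracted with TRIzol and that of the other organs with an RNeasy kit from pooled pieces of an organ, and brain and nonbrain libraries were hybridised to the probes in separate pools with different numbers of amplification cycles after capture. Before capture, brain and liver had 1 cycle more than the other samples. Heart, kidney and liver shared the extraction and the cycles after capture, but liver differed from heart in those before it. The brain tissues' distance from kidney and liver cannot be told apart from this handling. Of the ERCC spike-in mixes, mix 2 was in cortex, olfactory bulb and kidney and mix 1 in the other tissues compared. The whole brain contains the cerebellum, cortex and olfactory bulb, and the number of mice was not given in the sources used here. These are bulk tissues, in which fewer cells of a type and less RNA per cell cannot be told apart.

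Excitable cells carry an electrical signal across their membrane and turn it into calcium entry, which starts contraction in heart muscle and transmitter release in neurons. Both cell types depend on voltage-gated channels, on scaffolds that hold channels and pumps in place, on calcium release from internal stores, and on kinases that read the calcium signal. Neurons and muscle also share families of RNA-binding proteins that give the same gene a tissue-specific form by alternative splicing.

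The 14 libraries held 8930236 fragments (heart) to 20355270 (cortex) in the lncRNA design and 14309220 (heart) to 43889295 (liver) in the splice junction design, so heart was the shallowest in both. The markers went with the labels, with 1 exception: Myh6, the heart myosin, had 320300 in heart in the lncRNA design but was listed at 0 in heart in the splice junction design, where liver had 13060. Of 7 neuronal markers, Snap25, Syt1, Rbfox3, Stmn2 and Gad1 were listed at 0 in heart in both designs, and Camk2a and Slc17a7 were not. Genes of 1 organ appeared at a steady low share in the organs hybridised with it. In the splice junction design, 4 heart muscle genes, Ryr2 among them, had 0.419% to 0.437% of their heart value in kidney and 0.661% to 0.812% in liver, 6 kidney genes had 1.61% to 2.46% of their kidney value in heart, and 3 liver genes had 1.04% to 1.61% of their liver value in heart. In the lncRNA design the same genes had 0.103% to 0.966% of their own organ's value elsewhere. What produced these shares was not tested. Kidney and liver values above 0 but within the shares of the heart muscle genes were found in 8 of the 1279 members in the lncRNA and in 5 in the splice junction design.

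Of the 1279 members, 999 were protein-coding (6.71% of those tested), 168 were lncRNA genes (5.78%), and 96 had no GENCODE gene (0.854%). The median gap, from the lowest of the 5 tissues to the higher of kidney and liver in the design where it was smaller, was 0.659 on the log2 scale, and 458 members had a gap of at least 1. Members with at least 10 fragments in both heart libraries numbered 574, whereas 392 had only 1 to 3 in at least 1 of them. Heart was the lowest of the 5 tissues in 48.9% of members in the lncRNA and in 56.1% in the splice junction design, and kidney was the higher of the reference organs in 72.9% and 74.7%. Across the scalings tried, 668 of the 1279 members kept a gap above 0, and quantile normalization left the fewest, 741. The members nearest the threshold were Gm16958 and Rad52, and the gene models just outside it were Oprk1 and XLOC_000021, all with gaps of 0.00.

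Protein-coding members were long genes. Their median genomic span was 46.45 kb, against 27.12 kb for all protein-coding gene models tested and 22.48 kb for those in the opposite order. Of the members, 31.1% spanned at least 100 kb, against 16.9% and 10.2%. Members had a median of 12 exons in their longest transcript and 6 transcripts, where all tested had 10 and 5. The lncRNA members had a median span of 14.57 kb, against 7.84 kb for all lncRNA gene models tested. Length was not used by the rule, but longer models also collect more fragments and probes, and that was not tested.

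The channel that releases calcium inside the cell and the channel that triggers it were both members. Ryr2, the calcium release channel of heart muscle (chr13:11553103-12106945), had 521900 in heart in the splice junction design, against 32210 in whole brain, 47490 in cerebellum, 66610 in cortex and 58330 in olfactory bulb. Kidney had 2283 and liver 3450, which were 0.437% and 0.661% of the heart value, shares much like those of Tnnt2, Actc1 and Nppa, other heart muscle genes. The lncRNA design gave 47230 in heart, 1772 to 2871 in the brain tissues, 91.25 in kidney and 131.2 in liver. Heart stood far above the brain tissues in both designs, by 3.89 ± 0.39 (SE) on the log2 scale with a limma adjusted p of 0.0013 (1 heart against 4 brain tissues). In this and every other heart against brain test below, heart is 1 tissue and whole brain contains the other brain tissues, so the p-values rest on a spread between overlapping tissues and not on independent mice. Ryr1, the release channel of skeletal muscle, had the other profile: 431.5 in heart against 992.8 to 4699 in the brain tissues, 20.72 in kidney and 31.32 in liver in the splice junction design. Its heart minus brain difference of -2.01 ± 0.82 did not pass (limma adjusted p = 0.14).

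Cacna1c, the pore of the L-type calcium channel of heart and neurons (chr6:118587165-119196418), had 47010 in heart in the splice junction design, with 8276 in whole brain, 8922 in cerebellum, 9472 in cortex, 22830 in olfactory bulb, 426.5 in kidney and 401.1 in liver. With the lncRNA design it had 33060 in heart, 6182 to 19460 in the brain tissues, 334.6 in kidney and 126.1 in liver. No excitable tissue came near kidney or liver in either design, and the gap was 4.20. Its partners Cacnb2, Cacna2d1 and Cacna2d2 were members too, with gaps of 3.65, 3.68 and 3.33, as were the pores Cacna1a, Cacna1h and Cacna1s with gaps under 0.5. Of the latter, Cacna1h and Cacna1s lost the order under quantile normalization. In all, 7 of 17 calcium channel subunits were members (41.2%) and none lay in the opposite order, beside 4.16% and 5.14% of all gene models. Against kidney and liver, limma found 4 of the 17 higher in heart (Cacna1c, Cacna1s, Cacnb2 and Cacna2d1) and 16 higher in the brain tissues, where 1.77% and 23.1% of all gene models passed in that direction. None of the 17 was lower, where 1.14% and 9.94% of all gene models were. With the 5 tissues together against kidney and liver, 4 of the 17 were higher and none lower, where 2.10% and 2.12% of all gene models passed. The rule uses these same values, so the counts describe the list and are no test of the members.

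Among 24 genes of calcium release and uptake, Ryr1, Ryr2 and Atp2b3 were members (12.5%, beside 4.16% of all gene models). Atp2b3 had only 5 in heart in the lncRNA design, where 1 heart fragment counts 4.77. Itpr2, a release channel of the inositol trisphosphate pathway, lay in the opposite order. Itpr2 lost that order with total-fragment scaling and with quantile normalization. Atp2a2, Pln and Jph2, the heart's calcium pump, its inhibitor and a protein that joins the membranes of the calcium release site, passed limma in heart but were no members.

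The kinases that read calcium were among the fullest lists: 8 of 20 calcium-dependent kinases and phosphatases were members, beside 4.16% of all gene models. Among the 8 were all 4 genes of the Camk2 family. Camk2d, the main family member of heart muscle, had 5337 in heart and 2256 to 5171 in the brain tissues in the splice junction design, against 653.8 in kidney and 321.9 in liver. Camk2g had 1157 in heart, 1531 to 3714 in the brain tissues, 200.5 in kidney and 198.4 in liver. Camk2b was low in heart, at 80.2 against 1733 to 2782 in the brain tissues, and its 4.011 in kidney and 6.09 in liver were lower still. Its heart minus brain difference was -5.02 ± 0.59 (limma adjusted p = 0.0023). Camk1, Ppp3ca, Prkca and Prkce completed the count, of which Camk1, Ppp3ca and Prkce lost the order under quantile normalization. In limma, 2 of the 20, Camk2d and Camk2g, were higher in heart than in kidney and liver, beside 1.77% of all gene models. In the brain tissues 17 of the 20 were higher, beside 23.1%. None was lower in heart or in the brain tissues.

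Camk2a, the family member best known from forebrain neurons, had 664.1 in heart in the splice junction design. The brain tissues had 15550, 729.6, 21990 and 9267 in whole brain, cerebellum, cortex and olfactory bulb. Kidney and liver had 6.685 and 3.48. With lncRNA CaptureSeq heart had 90.63, above the 34.13 of cerebellum and below the 461.5 to 1293 of the other brain tissues, with kidney at 1.69 and liver at 0. Heart and cerebellum had close levels of Camk2a in the splice junction design and not in the lncRNA design, and they differed in the transcript. A transcript of 7 exons and 4268 nt that starts 38.0 kb downstream of the start of the gene model held 84.7% of the heart value in the splice junction design and 0.0% to 0.7% in the brain tissues, where a transcript of 17 exons held 81.3% to 87.1% and had 4.5% in heart. With the lncRNA design a transcript of 6 exons with a start 38.1 kb downstream held 100.0% in heart, and 0.0% to 14.3% in the brain tissues. Heart therefore used the 3' portion of the gene. A short product of this gene in muscle, which holds the association domain without the kinase, is known as background. Shares of single transcripts are estimates that the authors' software made by dividing fragments among isoforms.

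**Figure D1:**
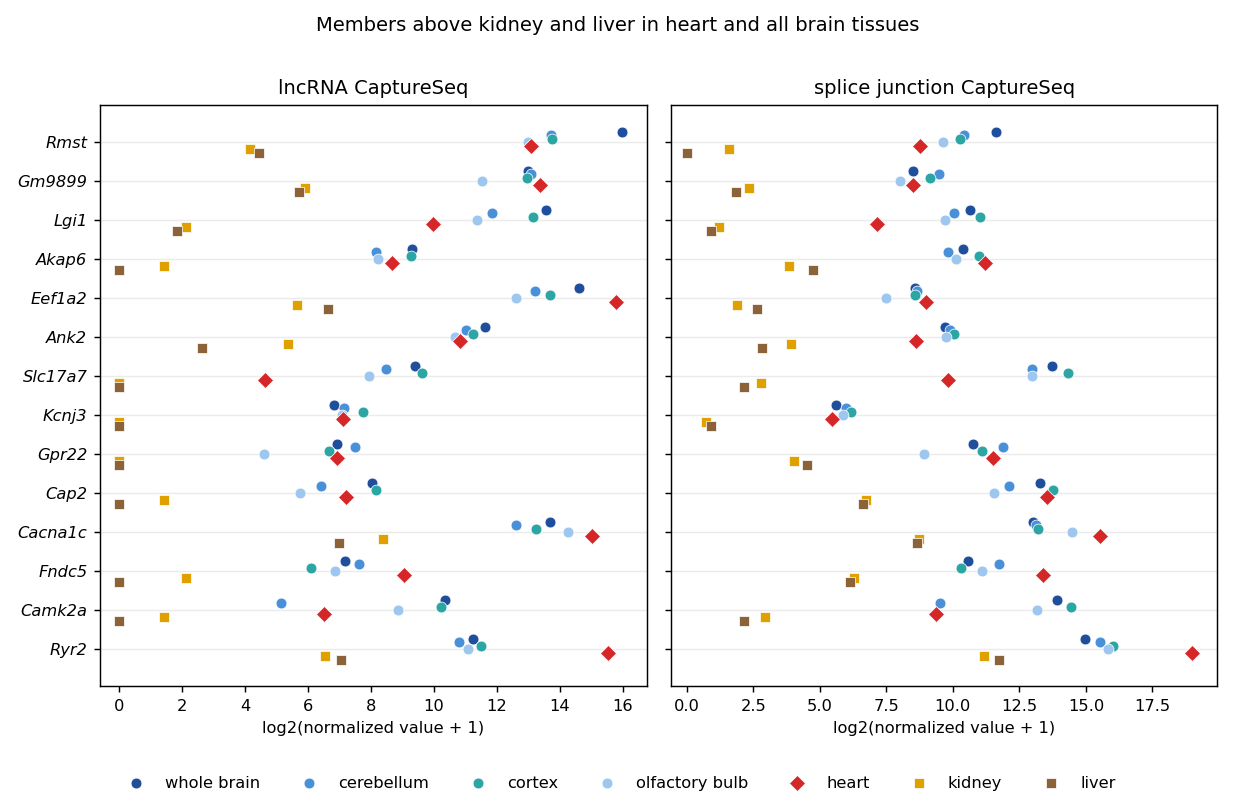
Values of 14 members in the 14 libraries on the log2(normalised value + 1) scale, lncRNA CaptureSeq on the left and splice junction CaptureSeq on the right; each point is 1 library, circles are brain tissues, diamonds heart and squares kidney and liver. The squares lie left of all circles and diamonds in every row, and the heart diamond lies right of the circles for Ryr2 and left of them for Slc17a7 and Lgi1.

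The anchors of channels and pumps were the next group. Ank2, ankyrin B, which holds ion transporters in heart muscle and axons, had 1794 in heart and 1613 to 3107 in the brain tissues in the lncRNA design, with 40.55 in kidney and 5.147 in liver, and its gap was 4.69. Of 24 ankyrins, spectrins and genes of the dystrophin complex, 8 were members (33.3%, beside 4.16% of all gene models). They were Ank1, Ank2, Sptb, Dmd, Dtna, Sgcb, Sgcd and Sgce. Dmd and Sgce lost the order under quantile normalization. Dmd, whose protein ties the membrane to the actin skeleton, had 85760 in heart, 13890 to 38210 in the brain tissues, 1400 in kidney and 2090 in liver in the splice junction design. Sgcd, a sarcoglycan of the same complex, was higher in heart than in the brain tissues by 2.66 ± 0.72 (limma adjusted p = 0.041), a call that was lost without whole brain. In limma, 9 of the 24 were higher in heart than in kidney and liver, 1 (Dtnb) was lower, and 13 were higher in the brain tissues, beside 1.77%, 1.14% and 23.1% of all gene models.

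Ank1, the ankyrin first known from red blood cells, reached 52710 in heart in the lncRNA design, against 3816, 6384, 1285 and 1257 in whole brain, cerebellum, cortex and olfactory bulb, 59.14 in kidney and 123.5 in liver. With the splice junction design heart had 5258 and lay among the 3509 to 21560 of the brain tissues, so the excess of heart was seen in 1 design. There the lncRNA design counted a short transcript of 4 exons and 2833 nt at the 3' end, 164.0 kb downstream of the start of the gene model, which held 55.1% of the heart value and 7.3% to 15.5% of the values of the brain tissues. The summed value of 5 red blood cell markers was 457.9 in heart, 58.94 to 414.8 in the brain tissues, 258.5 in kidney and 584.2 in liver in this design, and its part in Ank1 was not tested. Sptb, the spectrin partner of ankyrin 1, had 15340 in heart and 5911 to 17470 in the brain tissues in the splice junction design, with 310.8 in kidney and 288.9 in liver.

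Among 9 genes of the sodium-potassium pump, Fxyd6, a regulator of the pump, was a member with a gap of 2.08. Potassium and pacemaker channels gave 9 members of 44, and sodium channels with their partners gave 3 of 15, beside 4.16% of all gene models. Kcnj3, a subunit of the G protein-gated channel that slows the heart and quietens neurons, had 138.3 in heart and 111.5 to 213.3 in the brain tissues in the lncRNA design, and 0 in kidney and liver. Its splice junction values were 43.31 in heart and 47.75 to 71.77 in the brain tissues, with 0.6685 in kidney and 0.87 in liver, which is 1 fragment each. Kcnh2, which repolarises heart muscle, had 1379 in heart, 322.8 to 1079 in the brain tissues, 24.06 in kidney and 15.66 in liver in the splice junction design. Kcnk3, a background potassium channel, was higher in heart than in the brain tissues by 3.33 ± 0.79 (limma adjusted p = 0.027), which was lost without whole brain, and Hcn2, a pacemaker channel, was lower by -2.63 ± 0.57 (limma adjusted p = 0.019). Other members in these lists were Kcnd3, Kcnj12, Kcnip2, Kcnab1, Scn3a, Fgf13 and Fgf14, of which Scn3a and Fgf13 lost the order under quantile normalization. Hcn2 and Scn3a had only 5 in heart in the lncRNA design, where 1 heart fragment counts 4.77. Kcnj12 had 10 in heart there and 6 in the splice junction design, where 1 heart fragment counts 1.60. In limma, 4 of the 44 and 2 of the 15 were higher in heart than in kidney and liver, beside 1.77% of all gene models. None was lower in heart. In the brain tissues 34 of the 44 and 12 of the 15 were higher, beside 23.1%, and 1 of each list was lower, beside 9.94%.

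Signalling by cyclic AMP gave 10 members of 31 (32.3%, beside 4.16% of all gene models). Akap6, the anchor that holds protein kinase A at the nuclear envelope of muscle cells and neurons, had 2340 in heart, 1325, 896.3, 2042 and 1121 in whole brain, cerebellum, cortex and olfactory bulb, 13.37 in kidney and 26.1 in liver in the splice junction design. The lncRNA design gave 405.5 in heart, 286.2 to 624.2 in the brain tissues, 1.69 in kidney and 0 in liver. Heart and brain tissues overlapped in the latter, their difference was 0.40 ± 0.56 (limma adjusted p = 0.71), and the gap was 5.05. Adcy5, a cyclase of heart and striatum, had 3328 in heart and 1445 to 6695 in the brain tissues against 234 in kidney and 132.2 in liver. Adcy3, Adcy8, Akap7, Gnao1, Pde1c, Pde4a, Pde7b and Prkar1a were the others, of which the 3 phosphodiesterases and Prkar1a lost the order under quantile normalization and Pde1c and Prkar1a also under TMM. Gnao1 rested on 4 and 3 heart fragments. In limma 1 of the 31, Akap6, was higher in heart than in kidney and liver, which is near the 1.77% of all gene models, and 20 were higher in the brain tissues, beside 23.1%.

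MEF2 factors and regulators linked to activity gave 5 members of 19 (26.3%, beside 4.16% of all gene models). Mef2d, a transcription factor of muscle and neurons, had 36380 in heart and 11300 to 27290 in the brain tissues in the lncRNA design, against 6154 in kidney and 5891 in liver. Hdac9, a deacetylase that binds MEF2, and Camta1, a calmodulin-binding transcription activator, had gaps of 3.04 and 2.69. Hdac5 and Camta2, whose model overlaps 2 coding genes, had gaps of 0.09 and 0.42 and lost the order under quantile normalization and with total-fragment scaling, and Hdac5 also under TMM. Rest, the repressor of neuronal genes, lay in the opposite order, with 9464 in heart, 731.2 to 1902 in the brain tissues, 16680 in kidney and 13760 in liver in the lncRNA design, an order that total-fragment scaling did not keep. Rest was higher in heart than in the brain tissues by 2.67 ± 0.48 (limma adjusted p = 0.011).

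Fuel genes divided between both directions, with 6 of 30 as members and 4 in the opposite order, beside 4.16% and 5.14% of all gene models. Pygm, the glycogen phosphorylase of muscle, had 96580 in heart, 1949 to 3201 in the brain tissues, 780.8 in kidney and 922.2 in liver in the splice junction design. Pygb, the brain form of the enzyme, also had its highest values in heart: 12270, against 997.2 to 1594 in the brain tissues, 381.7 in kidney and 241.9 in liver. Heart exceeded the brain tissues by 5.48 ± 0.49 for Pygm (limma adjusted p = 0.00085) and by 3.56 ± 0.54 for Pygb (limma adjusted p = 0.0059). Pfkm, the muscle phosphofructokinase, Hk1, Slc2a3 and Slc25a4 were the other members, of which Hk1 and Slc25a4 lost the order under quantile normalization. Slc2a2, Ldha and Slc25a5 were among those in the opposite order. Slc2a2, the glucose transporter of liver and kidney, had 11590 in kidney, 41180 in liver, 729.8 in heart and 0.7438 to 3.644 in the brain tissues in the splice junction design.

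**Figure D2:**
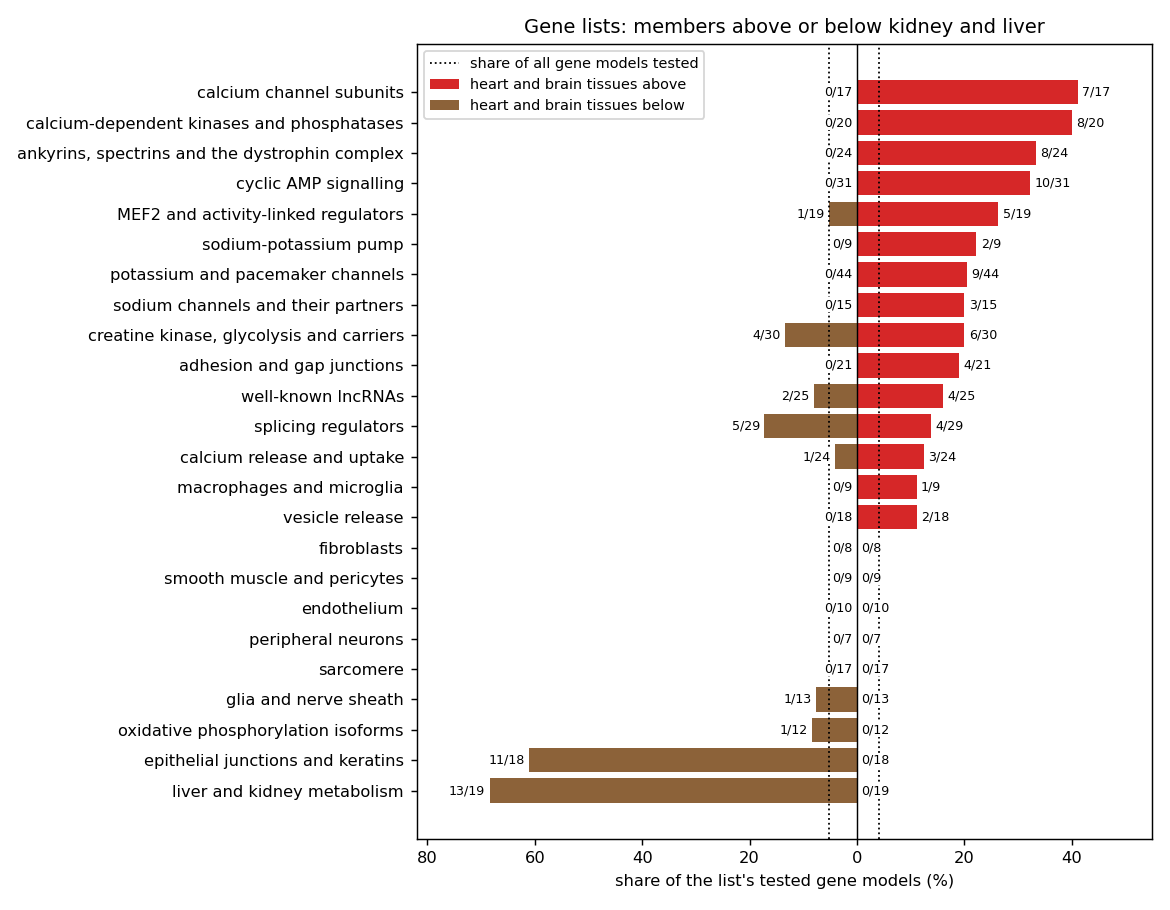
Share of the tested gene models of each list that lay above kidney and liver in heart and all 4 brain tissues (red, to the right) or below them (brown, to the left), in both designs; labels give the count over the number tested, and lists with fewer than 7 tested are not drawn. Dotted lines mark the shares among all gene models, 4.16% above and 5.14% below; calcium channel subunits reach 7 of 17 and liver and kidney metabolism 13 of 19 on the other side.

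Lists of the contraction machinery and of other cell types gave few members. With 4.16% of all gene models as members, lists this short would hold few or none, so these counts say little about them. None of 17 sarcomere genes was a member, although heart exceeded kidney and liver by a median of 7.67 on the log2 scale in this list. In limma 8 of them were lower in the brain tissues than in kidney and liver and none higher, beside 9.94% and 23.1% of all gene models. None was found among 12 tissue forms of respiratory chain subunits, 13 markers of glia, 7 of peripheral neurons, 10 of endothelium, 9 of smooth muscle and pericytes, 8 of fibroblasts, 2 of fat cells or 5 of red blood cells. P2ry12 was the 1 member among 9 macrophage and microglia markers (11.1%), and Mybpc1 the 1 among 3 skeletal muscle genes (33.3%). Opposite lists were fuller in the opposite order: 11 of 18 epithelial genes and 13 of 19 genes of liver and kidney metabolism lay below kidney and liver in heart and all brain tissues. Of all gene models tested, 5.14% did so. Vesicle release gave 2 members of 18 (11.1%), Rab3a and Unc13a. All 18 were higher in the brain tissues than in kidney and liver in limma, beside 23.1% of all gene models. The median difference of heart from kidney and liver was -0.01 in this list. Unc13a lost the order under TMM and quantile normalization. Rab3a had only 14 in heart in the lncRNA design, where 1 heart fragment counts 4.77. Adhesion and gap junction genes gave 4 of 21, Gja1, Cntn2, Nlgn2 and Nlgn3. The model named Nlgn3 overlaps 2 coding genes, and in the splice junction design a transcript of 46 exons in its upstream portion held 89.3% of the value in heart, 91.7% in kidney and 96.0% in liver, against 0.3% to 24.8% in the brain tissues, so its membership is uncertain. Gja1, the connexin of heart muscle and astrocytes, had 39090 in heart and 3969 to 11280 in the brain tissues in the lncRNA design, against 620.2 in kidney and 2452 in liver.

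Several genes best known from neurons were members. Of the 7 neuronal markers, 5 were listed at 0 in heart. The summed value of 10 peripheral neuron markers was 157.2 in heart, 4.011 in kidney and 1.74 in liver in the splice junction design. In the lncRNA design the sum was 152.6, 87.87 and 2.573, with 9 of the 10 at 0 in heart. The part of neurons within the heart in these values was not tested. Slc17a7, the transporter that loads glutamate into synaptic vesicles, had 13650, 7966, 20660 and 8091 in whole brain, cerebellum, cortex and olfactory bulb in the splice junction design, 899.9 in heart (561 fragments), 6.016 in kidney and 3.48 in liver. The lncRNA value of heart was 23.85, which is 5 fragments, against 244.6 to 791.5 in the brain tissues and 0 in kidney and liver. The same transcript of 12 exons led in heart and in the brain tissues in the splice junction design, with 86.8% and 92.2% to 97.1%. Heart was lower than the brain tissues by -3.96 ± 0.65 (limma adjusted p = 0.0079).

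Lgi1, a secreted protein of the synapse and the protein-coding member with the largest gap, 5.94, had 992.2 in heart and 2605 to 12080 in the brain tissues in the lncRNA design, with 3.38 in kidney and 2.573 in liver.

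The other protein-coding members with the largest gaps joined genes of both tissues. Eef1a2, the elongation factor that replaces Eef1a1 in adult muscle and neurons, had 55770 in heart, 6185 to 24920 in the brain tissues, 49 in kidney and 97.79 in liver in the lncRNA design. Cap2, an actin regulator, had 11800 in heart, 2969 to 14020 in the brain tissues, 105.6 in kidney and 96.57 in liver in the splice junction design. Fndc5, the precursor of irisin, had 10770 in heart, 1276 to 3446 in the brain tissues, 76.2 in kidney and 69.6 in liver. Gpr22, an orphan receptor of heart and brain, had 2927 in heart and 482.2 to 3746 in the brain tissues, against 15.37 in kidney and 21.75 in liver. Heart differed from the brain tissues by less than the test could show for Cap2 (0.49 ± 0.91), Gpr22 (0.67 ± 0.98), Arhgap20 (-0.04 ± 0.51), Pygo1 (0.09 ± 0.54) and Wnk2 (-0.30 ± 0.57), with limma adjusted p values of 0.72 to 0.97. Ndrg4, Cdh20, Acsl6, Fgf14, Fam131a, Prune2, Gpr137c, Frmd5, Mdga1 and Rbfox1 were also among the 25 largest gaps, with gaps of 3.82 to 5.34.

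Over all members, heart was lower than the brain tissues in 195 (15.2%) and higher in 39 (3.05%) by limma, where 12.8% and 5.42% of all gene models tested were lower and higher. The median heart minus brain difference was -0.80 in members and -0.41 in all gene models. Heart lay below all 4 brain tissues in both designs in 505 members (39.5%), within their range in 193 (15.1%) and above them in 136 (10.6%), against 17.2%, 27.1% and 11.9% of all gene models tested. The rule itself bounds heart from below by kidney and liver, so these shares describe the members and carry no test.

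Among noncoding genes, Rmst had the largest gap of all members, 7.18. Rmst is a long noncoding RNA known from neuronal differentiation (chr10:92044966-92471154, minus strand). It had 63500, 13350, 13680 and 8143 in whole brain, cerebellum, cortex and olfactory bulb, 8696 in heart, 16.9 in kidney and 20.59 in liver with the lncRNA design. The splice junction values were 3184, 1368, 1248 and 800.9 in the same brain tissues, 434.7 in heart (271 fragments), 2.005 in kidney and 0 in liver. Heart lay among the brain tissues in the first design and below them in the second. The transcripts differed: one of 9 exons, chr10:92171301-92375373, held 20.6% (lncRNA design) and 35.0% (splice junction design) of the heart value, against 0.0% to 0.5% in the brain tissues.

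Gm9899 had the next largest noncoding gap, 5.62, with 10420 in heart, 2949 to 8693 in the brain tissues, 59.14 in kidney and 51.47 in liver in the lncRNA design. It lies at chr5:30573927-30588467, and its model overlaps the first bases of the model of Kcnk3 (chr5:30588170-30625270). Gm14033 (chr2:55411377-55433435) ends shortly before the model of Kcnj3 (chr2:55435970-55598145), another member, and had 353 in heart and 296.1 to 10560 in the brain tissues, with 0 in kidney and 2.573 in liver. 2900052N01Rik, D230017M19Rik, 4930412L05Rik, Gm26703, 9330102E08Rik, Gm28703 and 5330413P13Rik had gaps of 2.54 to 3.10. Among 25 well-known lncRNAs, Rmst, Meg3, Mirg and Snhg14 were members and Neat1 and Epb41l4aos lay in the opposite order, where 4.16% and 5.14% of all gene models did so. Meg3, an imprinted RNA, had 1951 in heart and 41900 to 327900 in the brain tissues in the lncRNA design, against 196 in kidney and 193 in liver, but 1 heart fragment in the splice junction design, and it lost the order under quantile normalization. The model of Snhg14 overlaps 3 coding genes, so its value is uncertain. The gene models with no GENCODE gene and the largest gaps, XLOC_021705, XLOC_045585, XLOC_018352, XLOC_023988 and XLOC_010215, had 2 to 105 heart fragments in lncRNA CaptureSeq and 2 to 7 in splice junction CaptureSeq.

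Splicing regulators stood on both sides of kidney and liver. Of 29, the members were Rbfox1, Rbfox2, Celf2 and Srrm4 (13.8%, beside 4.16% of all gene models). Ptbp1, Ptbp3, Esrp1, Esrp2 and Mbnl3 lay in the opposite order, as did 5.14% of all gene models. Rbfox1, which binds GCATG in introns of muscle and neuronal genes, had 580.7 in heart, 1933, 1801, 2351 and 911.8 in whole brain, cerebellum, cortex and olfactory bulb, 26.74 in kidney and 5.22 in liver in the splice junction design. Its gap was 4.39 and it kept the order under every scaling tried, as did Rbfox2, Celf2 and Srrm4. Srrm4, the activator of neuronal microexons, had 129.9 in heart and 227.2 to 740.1 in the brain tissues, against 1.337 in kidney and 46.98 in liver, so that liver lay much nearer to heart than kidney did. Ptbp1, the repressor of many neuronal and muscle exons, had 231 in heart and 81.44 to 147.8 in the brain tissues, against 652.4 in kidney and 782.2 in liver. Esrp2, an epithelial splicing factor, had 146 in heart, 6.366 to 23.77 in the brain tissues, 873.7 in kidney and 1824 in liver. Ptbp1 and Esrp2 kept the opposite order under every scaling tried, and Ptbp3, Esrp1 and Mbnl3 lost it with total-fragment scaling. In limma 16 of the 29 were higher in the brain tissues than in kidney and liver and 5 lower, beside 23.1% and 9.94% of all gene models. The median difference of heart from kidney and liver was 0.00 in this list.

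**Figure D3:**
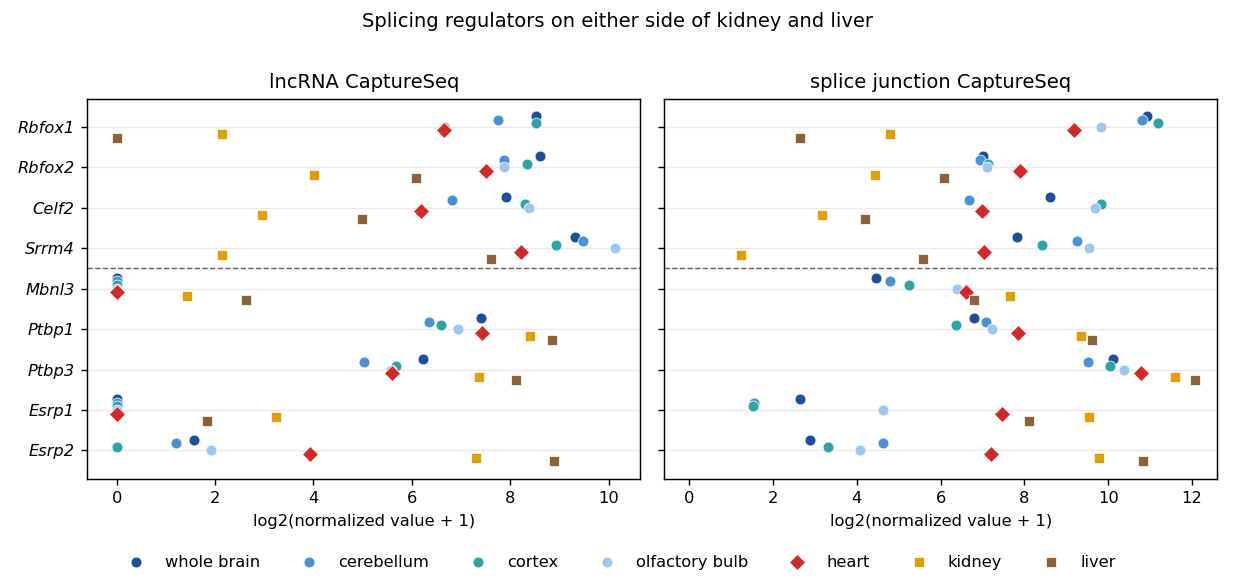
Values of 9 splicing regulators in the 14 libraries on the log2(normalised value + 1) scale, lncRNA CaptureSeq on the left and splice junction CaptureSeq on the right, with 1 point per library. Above the dashed line heart and all brain tissues lie right of kidney and liver, as for Rbfox1 with 580.7 in heart and 26.74 in kidney, and below the line they lie left of them, as for Esrp2 with 146 and 873.7.

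A shared gene did not always mean a shared transcript. In the splice junction design, the same transcript had the largest share in heart and in the mean of the brain tissues in 482 of 676 members with a value of at least 50 in each of these tissues, or 71.3%. Among the other gene models that could be examined the share was 78.6% (5208 of 6627), and in the lncRNA design it was 69.1% of 564 members and 78.5% of 3906 others. Where the leading transcript held at least 50% of the gene, it was 85.2% of 461 members and 89.2% of 4773 others. The 4 brain tissues themselves all led with the same transcript in 74.6% of the 676 members and 77.7% of the 6627 others. In the lncRNA design they did so in 66.0% of members and 69.1% of others. The shares among the brain tissues ask all 4 to lead with the same transcript at once. Those for heart compare heart with the mean of the brain tissues, so they are unlike measures and cannot be set against each other. Rbfox1 itself was among the members that differed between heart and brain. A transcript of 13 exons starting 683.0 kb downstream of the start of the gene model held 53.1% in heart and 0.3% to 8.7% in the brain tissues. It takes an exon of 43 nt, chr16:7369801-7369843, in place of one of 40 nt, chr16:7363865-7363904. The 43 nt exon had an estimated inclusion of 53.1% in heart and 0.3% to 8.7% in the brain tissues, and the 40 nt exon had 46.9% and 91.3% to 99.7%. The lncRNA design gave the 43 nt exon 83.3% in heart and 0.0% in the 4 brain tissues. Their sequences, shown because the pair is the form in which heart and brain differ in this regulator, are in capitals with 20 spliced bases on either side:
Rbfox1 exon of 43 nt: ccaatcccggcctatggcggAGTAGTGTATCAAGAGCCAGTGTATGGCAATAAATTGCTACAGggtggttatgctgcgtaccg
Rbfox1 exon of 40 nt: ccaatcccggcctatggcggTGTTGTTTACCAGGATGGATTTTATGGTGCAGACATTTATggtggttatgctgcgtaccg

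**Figure D4:**
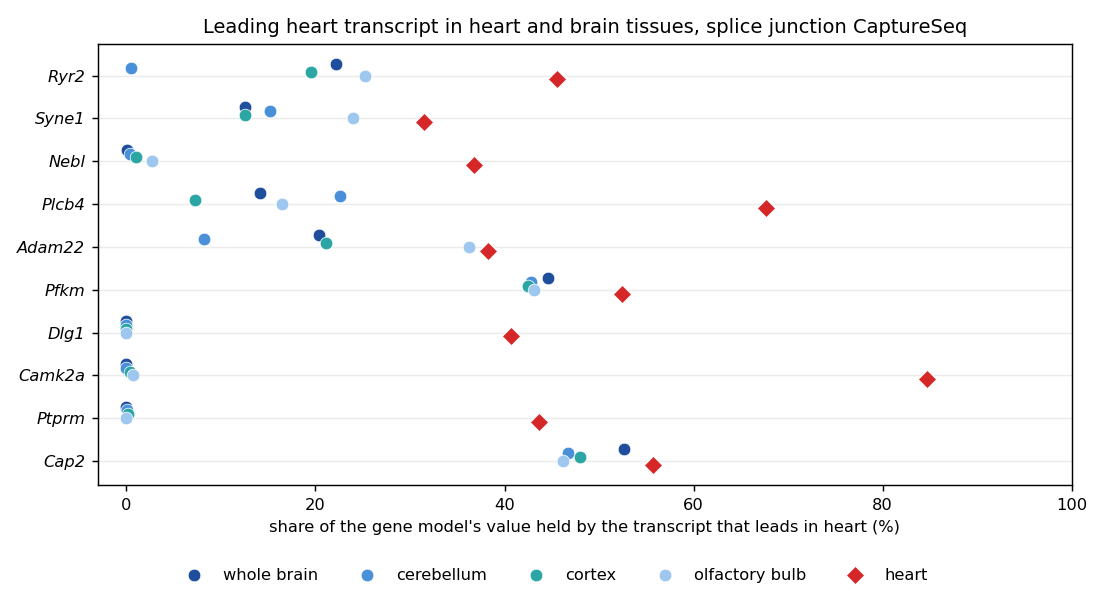
Share of a gene model's value, in percent, held by the transcript that leads in heart, for the 10 members with the largest values whose leading transcript differed between heart and the brain tissues, in splice junction CaptureSeq; each point is 1 library, circles brain tissues and diamonds heart. The heart share of Camk2a, 84.7%, stands beside 0.0% to 0.7% in the brain tissues, whereas those of Pfkm and Cap2 lie close to the circles.

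Inclusion of single exons was estimated as the value of transcripts that hold an exon over the value of those that hold or skip it. In 489 members, 1682 exons could be examined in heart and in the brain tissues. Heart differed from every brain tissue by at least 50 percentage points in 65 of them, 30 higher in heart in 18 gene models (1.78% of the exons) and 35 lower in 25 (2.08%), against 0.840% and 0.861% of 14170 exons in the other gene models. Of those that could be examined in the lncRNA design, 9 of 17 higher and 13 of 22 lower ones lay on the same side. Microexons, taken as exons of at most 27 nt, leaned to 1 side. Of 77 microexons in members, 46 (59.7%) had a lower inclusion in heart than in every brain tissue and 12 (15.6%) a higher one, against 31.3% and 36.6% of the 1605 longer exons. In the lncRNA design, 12 of the 24 lower and 4 of the 8 higher microexons with enough signal lay on the same side. Their median inclusion was 44.5% in the brain tissues and 11.9% in heart. In the other gene models 181 of 416 microexons (43.5%) were lower in heart and 104 higher. In 36 of the 43 lower microexons of members with enough signal, kidney and liver lay below the brain tissues too. This examination was chosen after the data were seen, and exons of 1 gene share their transcripts.

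In 9 of the 77 microexons heart was lower than every brain tissue by at least 50 points, which is 11.7% against 5.53% (23 of 416) in the other gene models, and in 1, a 24 nt exon of Ank1, it was higher by that much. The 9 lie in Ryr1, Ryr2, Atp6v0a1, Clasp1, Clasp2, Git1, Itsn1, Nav1 and Nrg2, and each is a coding exon with a length that is a multiple of 3. The exon of 15 nt in Ryr1, chr7:29056234-29056248, had an inclusion of 93.4%, 99.0%, 98.7% and 71.7% in whole brain, cerebellum, cortex and olfactory bulb, but 0.0% in heart. The exon of 18 nt in Atp6v0a1, a subunit of the proton pump of vesicles (chr11:101049459-101049476), had 96.0%, 85.7%, 97.8% and 91.9% against 0.0% in heart, kidney and liver. The exon of 27 nt in Git1, a scaffold of focal adhesions and synapses (chr11:77502829-77502855), had 83.6% to 95.2% in the brain tissues, 2.0% in heart, 1.2% in kidney and 0.0% in liver. In this design heart lacked in all 3 what the brain tissues held. In the lncRNA design the exon of Ryr1 had 99.8% in cerebellum and olfactory bulb but 2.1% in whole brain and 0.0% in cortex, beside 0.3% in heart. The sequences are shown because in the splice junction design these short exons differed between heart and brain in genes that both express:
Ryr1 exon of 15 nt: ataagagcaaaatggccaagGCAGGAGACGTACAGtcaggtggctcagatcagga
Atp6v0a1 exon of 18 nt: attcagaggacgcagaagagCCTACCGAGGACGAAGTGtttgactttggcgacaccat
Git1 exon of 27 nt: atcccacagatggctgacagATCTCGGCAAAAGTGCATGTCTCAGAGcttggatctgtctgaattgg
Clasp1 exon of 27 nt: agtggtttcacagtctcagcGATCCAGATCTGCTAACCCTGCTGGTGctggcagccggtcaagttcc
Itsn1 exon of 15 nt: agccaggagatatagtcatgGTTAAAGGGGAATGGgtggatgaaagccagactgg

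The values of all transcripts that hold or skip the exon were low in heart for Atp6v0a1 (68), Itsn1 (87) and Nav1 (106), so that few fragments stand behind those shares of 0.0%. Clasp1 (chr1:118523321-118523347), a microtubule-binding protein, had 91.8% to 100.0% in the brain tissues and 17.5% in heart. Itsn1 (chr16:91842628-91842642), a scaffold of endocytosis, had 57.6% to 91.0% and 0.0%. Of the 8 that could be examined in the lncRNA design, 4 lay on the same side, with heart at 0.0% for Atp6v0a1, 6.4% for Clasp1, 0.6% for Git1 and 62.5% for Clasp2, where the lowest brain tissue had 70.5%. Ryr1, the 24 nt exon of Ryr2 and Nrg2 did not, and Itsn1 had 40.1% in heart, within the 0.2% to 45.8% of the brain tissues.

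**Figure D5:**
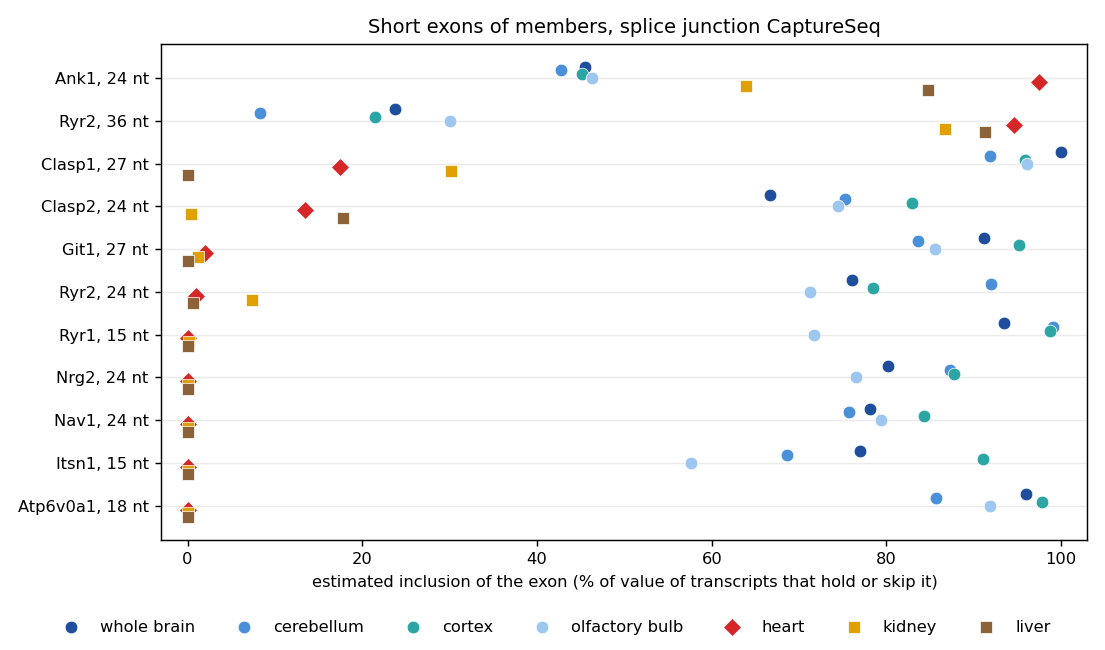
Estimated inclusion of 11 short exons of members in percent, in splice junction CaptureSeq, with 1 point per library, shifted slightly up or down within a row so that equal values can be seen; circles are brain tissues, diamonds heart and squares kidney and liver. Heart lies at 0.0% for Ryr1, Nrg2, Nav1, Itsn1 and Atp6v0a1, where the brain tissues reach 57.6% to 99.0%, and at 94.6% and 97.4% for the 36 nt exon of Ryr2 and the 24 nt exon of Ank1.

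Ryr2 had a short exon on each side. The exon of 24 nt, chr13:11634307-11634330, had 76.0%, 92.0%, 78.5% and 71.3% in whole brain, cerebellum, cortex and olfactory bulb, but 1.0% in heart. The exon of 36 nt, chr13:11647702-11647737, had 23.8%, 8.3%, 21.5% and 30.0% in the brain tissues and 94.6% in heart. Kidney and liver had 86.7% and 91.3% of the 36 nt exon and 7.4% and 0.6% of the 24 nt exon, close to heart, at Ryr2 levels that were 0.437% and 0.661% of that of heart. In the lncRNA design the 36 nt exon had 82.2% in heart and 0.0% to 24.7% in the brain tissues, whereas the 24 nt exon had 31.4% in heart and 0.1% to 40.8%, so only the first kept its side. Both exons are coding and a multiple of 3 in length, and they are shown because the same gene has 1 that heart takes and 1 that it skips:
Ryr2 exon of 36 nt: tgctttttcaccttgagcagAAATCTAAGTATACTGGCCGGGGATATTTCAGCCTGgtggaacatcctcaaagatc
Ryr2 exon of 24 nt: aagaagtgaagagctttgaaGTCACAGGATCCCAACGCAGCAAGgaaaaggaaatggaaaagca

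Longer exons of the members differed as well. Nebl, whose product nebulette sits at the Z disc of heart muscle, had exons of 93 to 150 nt at its 3' end with an inclusion of 99.9% in heart and 0.2% to 5.0% in the brain tissues. Kidney had 76.2% and liver 90.3% of them, on the side of heart, but at low values. The transcripts that hold or skip these exons had 177 in kidney and 217 in liver, against 27090 in heart. What produced these kidney and liver values was not tested. The value of Nebl was 85840 in heart and 3546 to 5092 in the brain tissues. Camk2d has a pair of 73 nt exons, of which the upstream one, chr3:126770785-126770857, had 91.4% in heart and 37.0% to 40.6% in the brain tissues, and the downstream one, chr3:126771774-126771846, had 8.6% and 59.4% to 63.0%. Kidney and liver were on the side of heart, with 100.0% and 98.9% of the upstream exon and 0.0% and 1.1% of the downstream one. Dlg1, a scaffold of synapses and of heart muscle channels, had an exon of 100 nt at 91.3% in heart and 5.2% to 11.1% in the brain tissues, and one of 34 nt at 10.5% and 88.3% to 94.4%. Kidney and liver lay between, with 45.9% and 68.7% of the 100 nt exon and 55.5% and 37.4% of the other. The gap of Dlg1 was 0.17 and was lost with total-fragment scaling, TMM and quantile normalization. Plcb4, a phospholipase C, had a 37 nt exon at 92.5% in heart, 98.0% in kidney and 93.2% in liver, against 11.5% to 39.9% in the brain tissues. The lncRNA design did not show the same side for Camk2d and Plcb4, with 0.0% and 0.7% in heart, nor for the 100 nt exon of Dlg1, which had 0.0% in heart and in all brain tissues. For the 34 nt exon of Dlg1 it had 11.7% in heart, below every brain tissue, of which the highest had 51.7%.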

How the data were processed

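The 14 libraries of 7 tissues and 2 capture designs were compared, and those labelled testes were left out of every comparison. The authors aligned reads to GRCm38 with TopHat2 and built and merged transcripts with Cufflinks 2.2.1. They deposited signal values for 137653 transcripts, which are fragment estimates per library that Cuffnorm 2.2.1 normalised. They were summed per gene model, and models were named by exon overlap with GENCODE M21. Each sum was a whole multiple of 1 step per library, which gave the fragments. Tissues, averaged over designs, were compared with limma 3.58.1 in R 4.3.3 on log2(value + 1), where a model's mean value reached 10, and calls were made at an adjusted p under 0.05 (Benjamini-Hochberg). Heart is 1 tissue there, so the spread came from the brain tissues and from kidney and liver. Mouse-to-mouse variation is not in these p-values. Total-fragment scaling and TMM left out the ERCC spike-ins.

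Alternatives were the pseudocount, filter, scaling, capture design, minimum gap and leaving out each tissue. The models named are the 25 protein-coding, 10 noncoding and 5 unannotated members with the largest gaps, members of 27 gene lists, the 10 most even between heart and brain tissues, the 10 extreme in the opposite order, those nearest the threshold and the 10 with the largest values that lead with different transcripts. Some genes that these rules name are not reported here. Other genes were chosen after their values were seen. The members and lists were chosen with earlier results of these data known. The exon inclusion calculation was run on a made-up gene model with known shares, which checks the arithmetic and not the isoform estimates. Python 3.11.15, NumPy 2.4.6 and pandas 2.3.3 were used.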

Additional observations from a re-analysis of the deposited data

Results flagged for a closer look

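In 8 of 80 groups of 4 brain tissues examined, 1 tissue stood far from the other brain tissues by Dixon's ratio of the gap over the range, where chance gives about 1 in 20. In the splice junction design, cerebellum was highest for Gpr137c (0.886) and lowest for Ndrg4 (0.864), 5330413P13Rik (0.874) and 2900052N01Rik (0.858), and olfactory bulb was highest for Cacna1c (0.867) and lowest for Eef1a2 (0.930). In the lncRNA design, olfactory bulb was lowest for Gm9899 (0.908) and Adam22 (0.854).

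Among 115 named members, 34 differed between heart and the brain tissues by limma at a Benjamini-Hochberg adjusted p under 0.05, 26 lower and 8 higher in heart. These are log2 differences over both designs. Heart is 1 tissue and whole brain contains the other brain tissues, and without whole brain 23 of the 26 lower and 5 of the 8 higher calls held, those of Lgi1, Adam22, Ndrg4, Cacna1s, Sgcd and Kcnk3 being lost. Channels, pumps and calcium genes lower in heart were Cacna1a (-5.32), Atp2b3 (-5.93), Hcn2 (-2.63) and Fgf14 (-3.88), and Cacna1s (4.40), Kcnk3 (3.33) and Ryr2 (3.89) were higher. Signalling genes lower in heart were Camk2b (-5.02), Adcy8 (-5.30), Gnao1 (-4.42) and Prkce (-3.08). Genes of synapses, adhesion and vesicles lower in heart were Lgi1 (-2.85), Slc17a7 (-3.96), Nlgn2 (-3.92), Nlgn3 (-2.83), Cntn2 (-4.38), Cdh20 (-4.86), Adam22 (-3.64), Unc13a (-3.56) and Rab3a (-3.23). Noncoding genes lower in heart were Meg3 (-6.12), Mirg (-4.60), Snhg14 (-3.04), Gm16958 (-4.35) and XLOC_021705 (-4.72), the last with no GENCODE gene. Ndrg4 (-2.16), Acsl6 (-2.32), Slc2a3 (-4.28) and Mybpc1 (-4.35) were lower too. Pfkm (2.05), Pygm (5.48), Pygb (3.56), Sgcd (2.66) and Nebl (5.42) were higher in heart. Atp2b3, Hcn2 and Cntn2 had a heart value of only 5 in the lncRNA design, where 1 heart fragment counts 4.77.

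In the libraries labelled testes, which entered no comparison, 618 of the 1279 members (48.3%) lay above kidney and liver in both designs, against 17.7% of all gene models tested (5445 of 30747). In 797 members (62.3%) these libraries lay below all 5 excitable tissues.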

How the results depend on the processing

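No paired analysis was possible because every label gives replicate 1 and each tissue has 1 library per design. A count test on the recovered fragments was planned and not run. Members numbered 764 under quantile normalization, 4403 with the lncRNA design alone, 3183 with the splice junction design alone, 458 with a gap of at least 1 and 574 with at least 10 fragments in both heart libraries, a filter chosen after seeing the data. The opposite order held for 915 with total-fragment scaling, 2737 and 2797 with those designs alone and 585 with a gap of at least 1. Leaving out 1 tissue gave 1348 to 4450 members, the latter without heart, with 2490 without kidney, and 1615 to 3839 in the opposite order, the latter without kidney, with 2913 without liver and 2843 without heart. In limma, 646 gene models were higher in the 5 tissues than in kidney and liver (2.10%) and 653 lower (2.12%). The higher ones became 400 with pseudocount 10, 388 with total-fragment scaling, 383 with no filter and 252 with the splice junction design alone, and the lower ones 411 with total-fragment scaling, 394 with the lncRNA and 336 with the splice junction design alone. Leaving out 1 tissue gave 20 (without liver) to 7099 (without heart) higher, with under 300 for each tissue other than heart, and 86 (without liver) to 3047 (without heart) lower, with 664 without kidney and 175 to 270 without 1 brain tissue. Against kidney and liver, heart was higher in 545 (277 with the lncRNA design alone; 300 without whole brain and 330 without cortex to 808 without kidney) and lower in 351 (1.14%; 152 without cortex, 172 without whole brain and 202 without olfactory bulb to 633 without liver and 995 without kidney). The brain tissues were higher in 7095 (3220 with the splice junction design alone; 3510 without liver to 7095) and lower in 3057 (9.94%; 1743 with the lncRNA design alone; 2080 to 3085). Without whole brain, an alternative added after seeing the data, 164 members in place of 195 were lower in heart than in the brain tissues and 30 in place of 39 higher. The share of members with the same leading transcript moved to 85.2% where that transcript held at least 50% of the gene.

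The median difference of all gene models between the 5 tissues and kidney and liver was 0.40, and became -0.06 under quantile normalization and 0.65 with total-fragment scaling. Of 115 named members, 91 kept a gap above 0 under all scalings and pseudocounts, and of 460 recomputed gaps 36 reversed, 147 moved and 277 stayed; the cause was not tested. Reversed gaps under quantile normalization were Nlgn2 -0.18, Pde7b -0.10, Pde4a -0.64, Pde1c -1.74, Meg3 -0.15, Ppp3ca -0.09, Unc13a -0.55, Slc25a4 -0.65, Prkce -0.11, Prkar1a -0.15, Sgce -1.11, Scn3a -0.09, Camta2 -0.42, Camk1 -0.26, Cacna1s -1.11, Cacna1h -0.52, Hk1 -0.03, Hdac5 -0.46, Dmd -0.20, Fgf13 -1.34, Gm16958 -0.12, Rad52 -0.38, Dlg1 -0.59 and Ptprm -0.18. Under TMM they were Pde1c -0.01, Unc13a -0.20, Prkar1a -0.18, Hdac5 -0.26, Gm16958 -0.36, Rad52 -0.40 and Dlg1 -0.15, and with total-fragment scaling Prkce -0.19, Camta2 -0.13, Hdac5 -0.46, Gm16958 -0.56 and Dlg1 -0.18. Heart was the shallowest library, so members with few heart fragments rest on the least counts.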
